A study of Mus musculus with 2 samples.

Results

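NF-κB is a family of transcription factors, and 10 genes of it and of the signalling just above it were followed in medullary thymic epithelial cells (mTECs): the subunit genes Nfkb1, Nfkb2, Rel, Rela and Relb, the inhibitor gene Nfkbia, the kinase gene Map3k14 and the adaptor genes Traf6, Traf3 and Traf1. They were taken by gene symbol, and all 10 were present among 23997 gene rows. RNA came from MHC class II high mTECs sorted from the thymus of C57BL/6 mice, with 1 library of genotype WT and 1 library of genotype Aire-/-, called here the WT-labelled and the KO-labelled library. Each library was made from pooled animals. The sources used here give neither the number, age and sex of the animals nor the targeted Aire allele. Because each genotype has 1 library, no difference below has a replicate check and no test of genotype is possible.

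In the canonical NF-κB pathway, inhibitor proteins such as IκBα, the product of Nfkbia, hold RelA and c-Rel dimers in the cytoplasm until the IKK kinases mark the inhibitor for destruction. In the non-canonical pathway, the kinase NIK, the product of Map3k14, drives processing of the Nfkb2 precursor p100 to p52, which acts with RelB, and TRAF3 keeps NIK low until a receptor is engaged. Mice that lack RelB, functional NIK or TRAF6 are known for a poorly formed thymic medulla, and RANK, CD40 and the lymphotoxin β receptor are the receptors best known to signal this way in mTECs.

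Values are in FPKM, fragments scaled to transcript length and library size, so that levels can be compared between genes. Fitted from the steps of low values, the libraries held about 48600000 and 55000000 fragments, and the members rested on 4611 to 79307 estimated fragments in the WT-labelled library and 5691 to 102646 in the KO-labelled library. Ratios are log2 of the KO-labelled library over the WT-labelled library after adding 0.1 FPKM to each, and "higher" or "lower" is used only for a ratio of at least 2-fold in a gene that averaged at least 0.5 FPKM, which is a rule of size. Intervals are exact conditional binomial 95% intervals of the ratio without that addition, and they cover counting error only. Markers of the labelled cell type were high in both libraries (H2-Aa at 8398 and 11948 FPKM, Krt18 at 1679 and 1990 FPKM, WT-labelled library first), and 0 of 12 mTEC identity genes passed the rule. Their ratios lay on both sides of 0, above it for 7 genes, with Epcam at 362.7 and 295.7 FPKM and Cldn4 at 581.8 and 308.6 FPKM. Aire transcript stood at 220.6 FPKM in the WT-labelled and 640.2 FPKM in the KO-labelled library, a log2 ratio of 1.54, so the targeted gene was higher by the 2-fold rule where its loss is labelled. A value over the whole transcript cannot isolate a deleted part, so the label could not be checked. Every direction below follows the labels and would turn if they were exchanged.

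None of the 10 genes differed by 2-fold between the libraries, and 9 of 10 had a ratio above 0. By comparison, 7.09% of the 15906 genes measured at this minimum were at least 2-fold higher, 20.5% were at least 2-fold lower and 53.3% had a ratio above 0. The median log2 ratio of the 10 genes was 0.47, against 0.05 for all measured genes. Among 7193 genes that averaged at least 10 FPKM, a range that holds all 10 members, the median was 0.17, 6.73% were at least 2-fold higher, 9.69% at least 2-fold lower and 64.1% had a ratio above 0. At a smaller size of 1.5-fold, 4 members (Traf6, Relb, Nfkb2 and Map3k14) were past the limit upwards and 0 downwards, where 19.3% of measured genes were past it upwards and 26.8% downwards, or 20.7% and 14.5% of those averaging at least 10 FPKM. In bulk RNA, fewer cells of a type and less RNA per cell cannot be told apart.

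**Figure D1:**
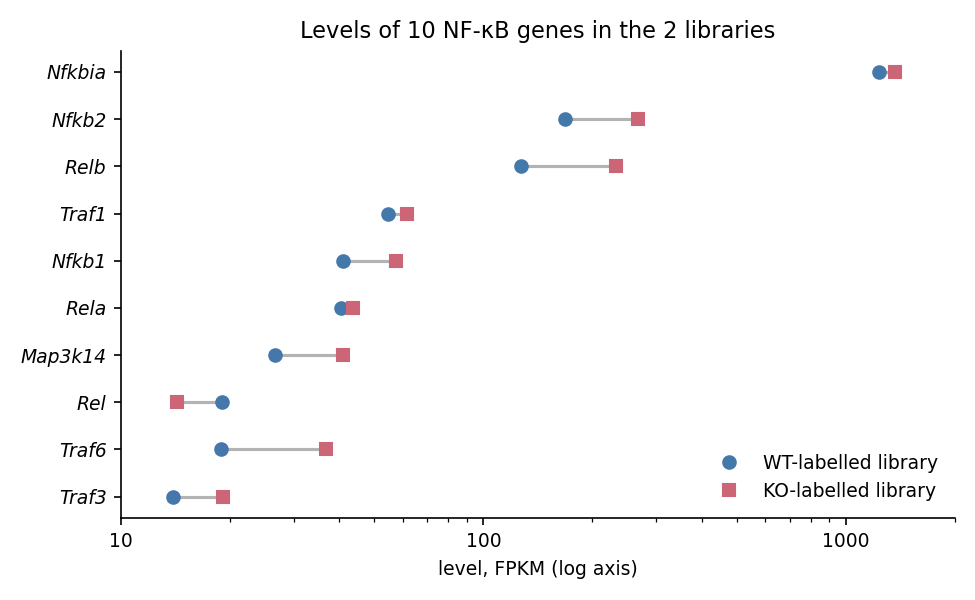
Levels of the 10 genes in FPKM on a log axis, 1 row per gene, ordered by the WT-labelled library; circles are the WT-labelled library and squares the KO-labelled library. Nfkbia stands apart at 1238 and 1364 FPKM, and Rel is the member whose square lies left of its circle.

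The inhibitor gene was the most abundant member. Nfkbia (chr12:55489409-55492647, mm10 for all positions) stood at 1238 FPKM in the WT-labelled and 1364 FPKM in the KO-labelled library, the 99.8th percentile of measured genes in each. Its level was 30.6 and 31.3 times that of Rela, the subunit gene whose product it holds back. The log2 ratio of 0.14 (0.13 to 0.15) was close to the median of genes averaging at least 10 FPKM, and it turned to -0.03 when ratios were centred on that median.

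Nfkb2 and Relb, which encode the partners of the non-canonical pathway, were the most abundant subunit genes in both libraries. Nfkb2 (chr19:46300994-46312400) stood at 168.1 FPKM in the WT-labelled and 267.9 FPKM in the KO-labelled library, a log2 ratio of 0.67 (0.65 to 0.70). Relb (chr7:19606217-19629438) stood at 126.8 and 231.9 FPKM, with log2 0.87 (0.84 to 0.90). Relb lay at the 90.3rd and Nfkb2 at the 84.4th percentile of the ratios of measured genes, below the 2-fold rule.

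The other subunit genes stood at 57.4 FPKM or less in either library. Nfkb1 (chr3:135584655-135691969), the gene of p105 and its product p50, stood at 40.9 and 57.4 FPKM, with log2 0.49 (0.45 to 0.53). Rela (chr19:5637442-5648134), the gene of the main activating subunit p65, stood at 40.5 and 43.6 FPKM, with the smallest difference among the members at 0.10 (0.05 to 0.16). Its ratio turned to -0.06 when centred on the median of genes averaging at least 10 FPKM. Rel (chr11:23736847-23770969), the gene of c-Rel, best known from lymphocytes, was the exception in direction, at 19.0 FPKM in the WT-labelled and 14.3 FPKM in the KO-labelled library. Its log2 ratio of -0.41 (-0.47 to -0.37) was below 0 under every setting tried.

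The make-up of the subunit transcripts differed accordingly. The summed level of the 5 subunit genes was 395.3 FPKM in the WT-labelled and 615.1 FPKM in the KO-labelled library. Nfkb2 and Relb together made up 74.6% of that sum in the former and 81.3% in the latter. Relb alone went from 32.1% to 37.7%, whereas the share of Nfkb2 was similar at 42.5% and 43.6%. Rela made up 10.2% and 7.09%, Nfkb1 10.4% and 9.33%, and Rel 4.82% and 2.32%. The level of Relb over that of Rela was 3.13 in the WT-labelled library and 5.32 in the KO-labelled library, and Relb over Rel was 6.66 and 16.3. Nfkb2 over Nfkb1, the pair of precursor genes, was nearer between libraries at 4.10 and 4.67. These are shares of RNA and say nothing of protein or of processing.

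**Figure D2:**
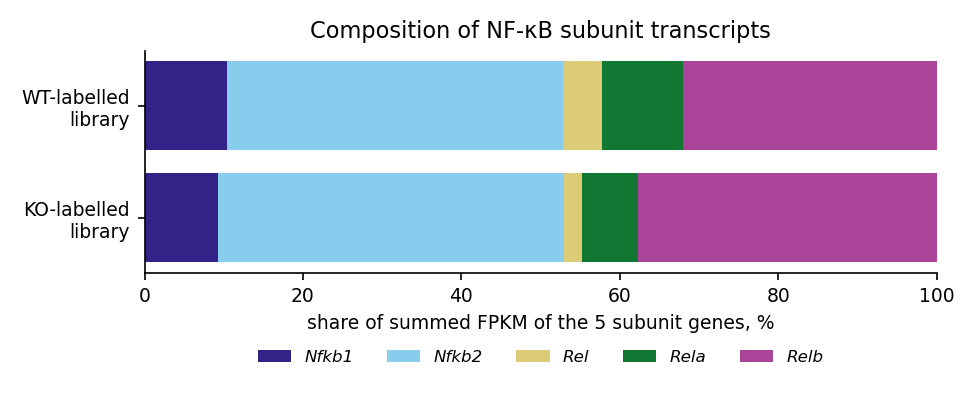
Share of the summed FPKM of the 5 subunit genes held by each gene, in percent, 1 bar per library. Nfkb2 and Relb fill 74.6% of the bar of the WT-labelled library and 81.3% of that of the KO-labelled library.

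Among upstream genes, Traf6 had the largest ratio of the 10 members. Traf6 (chr2:101678420-101701668), the adaptor gene of RANK, CD40 and Toll-like receptor signalling, stood at 18.8 FPKM in the WT-labelled and 36.9 FPKM in the KO-labelled library. The log2 ratio of 0.97 lay just under the 2-fold rule, which its counting interval of 0.92 to 1.02 included. Map3k14 (chr11:103219764-103267401), the gene of NIK, stood at 26.6 and 40.9 FPKM, with log2 0.62 (0.57 to 0.67). Traf3 (chr12:111166321-111267155), whose product restrains NIK, had the lowest level in the WT-labelled library, at 14.0 FPKM, against 19.1 FPKM in the KO-labelled library, a log2 ratio of 0.45 (0.40 to 0.51). Traf3 over Map3k14 was 0.524 and 0.467. Traf1 (chr2:34941750-34961812), a TRAF gene that NF-κB is known to induce, stood at 54.4 and 61.6 FPKM, with log2 0.18 (0.13 to 0.23).

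The order of levels was the same for the 7 most abundant members in both libraries: Nfkbia, Nfkb2, Relb, Traf1, Nfkb1, Rela and Map3k14. In the WT-labelled library, Nfkb1 and Rela could not be told apart within counting error (40.0 to 41.9 and 39.4 to 41.7 FPKM), and neither could Rel and Traf6 (18.6 to 19.5 and 18.3 to 19.3 FPKM). In the KO-labelled library, Traf6 stood above Traf3 and Rel was last, with no overlap of counting intervals between neighbours. The genes with levels most like those of Traf6 over the 2 libraries were Dnm1l (18.8 and 37.0 FPKM), Sec24b (18.9 and 36.1 FPKM) and Spast (18.3 and 36.3 FPKM). Over 2 libraries such likeness says only that levels and ratio were near.

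**Figure D3:**
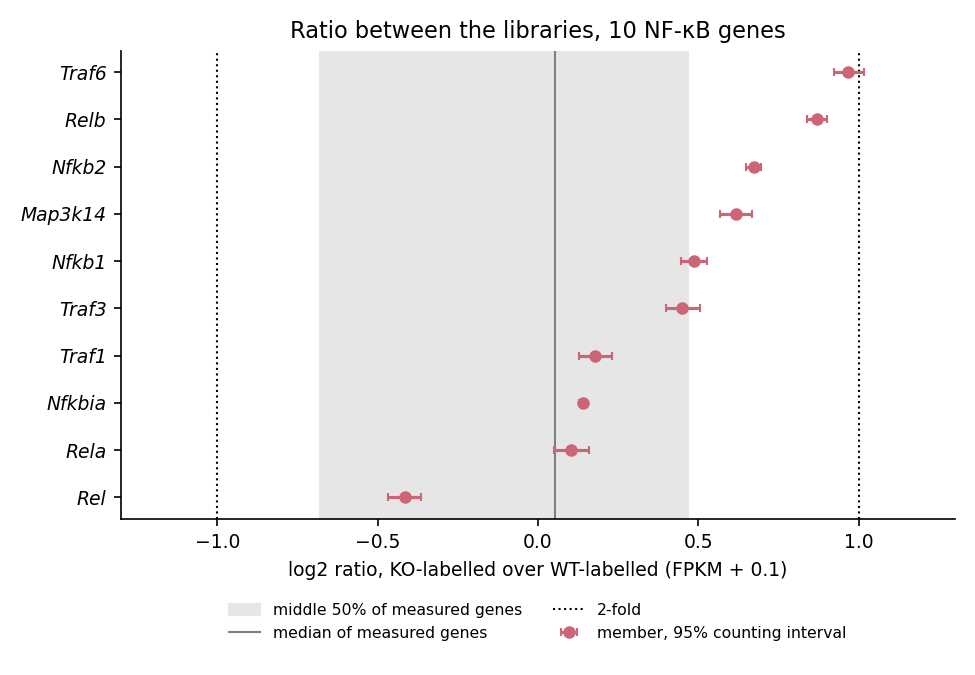
Log2 ratio of the KO-labelled library over the WT-labelled library for each member, with 95% counting intervals as bars; the grey band is the middle 50% of measured genes, the grey line their median and the dotted lines 2-fold. All 10 points lie between the dotted lines, and the interval of Traf6 reaches the upper one.

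The authors' deposited table called none of the 10 members. In the authors' deposited table the smallest q among them was 0.749 for Traf6, followed by 0.774 for Relb, and the largest was 0.999. Those values compare 2 libraries and not 2 genotypes.

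Isoform shares of the members differed little. Of the 10 genes, 7 had 1 isoform row, and 0 isoforms of the other 3 shifted by 25 percentage points or more. The largest change of share was 3.88 points. In Nfkb2, NM_001177369 held 55.3% of the gene in the WT-labelled library and 54.3% in the KO-labelled library (92.9 and 145.5 FPKM), and NM_019408 held 37.0% and 40.9% (62.2 and 109.5 FPKM). The remaining isoform, NM_001177370, stood at 12.9 FPKM in each. It and NM_019408 are linked to the same GENCODE transcript, so the division of reads between them is uncertain. In Relb, NM_001290457 held 95.7% and 96.3%. In Traf3, NM_011632 held 98.8% in the KO-labelled library, where NM_001286122 stood at 0.227 FPKM, while the latter was listed at 0 in the WT-labelled library. How well reads were divided among overlapping isoforms was not measured.

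NF-κB genes are known for regulating one another, so the bases before their start sites were searched for a κB motif, the DNA element that NF-κB dimers bind. The form searched was GGG, then 2 bases of any kind, then TTTCC, on both strands of the 250 bases before each start site in the RefSeq promoter table (GRCm38.p6, the assembly of mm10). The table held 10 windows for 8 of the 10 members, 3 of them for Nfkb2, and the later pair of these overlap. A match stood in 5 of the 10 windows, from 4 genes, Nfkb2, Nfkbia, Rel and Traf3, whereas 1.41% of all 32851 windows held one. The matches are shown because they set members with a match beside members without one. Each line is written 5′ to 3′ on the strand of the gene, with the match in capitals; in Nfkbia and Rel the motif reads on the opposite strand, so its reverse complement appears. Windows that overlap an annotated exon, or as in Traf3 the span of the RefSeq gene, are given as 30 bases around the match, and Nfkbia is given in full.
Nfkb2, first start site, chr19:46304707-46304736, plus strand: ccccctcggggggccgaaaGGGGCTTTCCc
Nfkb2, last start site, chr19:46305695-46305724, plus strand: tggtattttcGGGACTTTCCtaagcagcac
Rel, chr11:23771041-23771070, minus strand: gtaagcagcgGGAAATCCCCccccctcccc
Traf3, chr12:111166340-111166369, plus strand: cgcgcgcccaggcggcccgcGGGGATTTCC
Nfkbia, chr12:55492648-55492897, minus strand: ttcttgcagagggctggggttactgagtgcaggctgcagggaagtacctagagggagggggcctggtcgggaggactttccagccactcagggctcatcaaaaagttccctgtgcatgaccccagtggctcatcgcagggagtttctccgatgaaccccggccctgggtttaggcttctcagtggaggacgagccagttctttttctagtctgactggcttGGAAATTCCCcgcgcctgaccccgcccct

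Rel and Traf3 carried the same match on opposite strands, GGGGATTTCC. The first base of the match stood 91 bases before the start site in Rel, 29 in Nfkbia, 10 in Traf3, and 11 and 225 in the Nfkb2 windows. Members with a match had log2 ratios of -0.41 (Rel), 0.14 (Nfkbia), 0.45 (Traf3) and 0.67 (Nfkb2). Members with a window but no match had 0.10 (Rela), 0.18 (Traf1), 0.62 (Map3k14) and 0.97 (Traf6). Only this form was searched, so a window without a match is not shown to lack a κB element. The Map3k14 window and the first Nfkb2 window lay wholly within annotated exons (250 of 250 bases). The last Nfkb2 window had 234 of 250 bases in an annotated exon, so the windows are unlike. The start of the Nfkb2 transcript linked to NM_001177369 (46304744, GENCODE M21) lay next to the first window, and that linked to the other isoforms (46305696) next to the second, which held no match. The match in the last Nfkb2 window (46305705 to 46305714) lay after the start at 46305696, so it does not precede those isoforms. A match describes letters in a window and not a site in use.

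**Figure D4:**
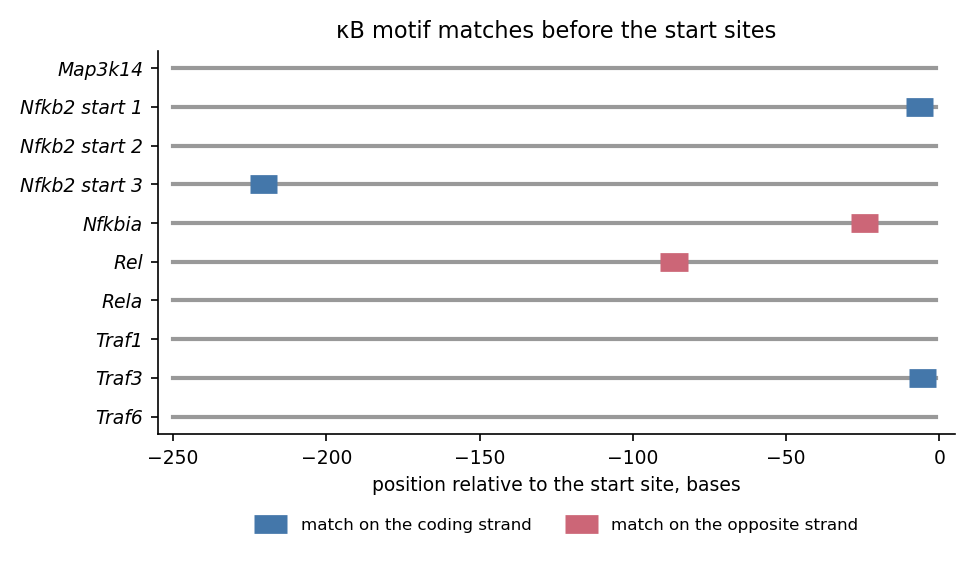
Matches to the κB motif in the 250 bases before each start site of 8 member genes; the x axis is the distance from the start site in bases, each line is 1 window, and colour gives the strand of the match. Of 10 windows, 5 hold a match, at 10 to 225 bases before the start.

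The rest of the pathway was described through 102 genes in lists chosen by role, with earlier results of these libraries known. Of 99 measured, 1 was higher, 23 were lower and 75 passed in neither direction, and their median log2 ratio was -0.04. At the minimum mean of 0.5 FPKM, the share of lower genes was near that of all measured genes (20.5%), and that of higher genes below theirs (7.09%). These shares of all genes also stand against each list count below. With a minimum mean of 10 FPKM, 12 of these pathway genes were lower and 1 higher, where 9.69% of all genes were lower and 6.73% higher. Fewer than 99 pathway genes reach that minimum, so these counts are not to be read out of 99. Of the 12, 9 were target genes. The lower receptor, ligand, adaptor and TRAF genes all averaged less than 10 FPKM, so that minimum left them out.

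At the receptors, direction differed among those nearest to the members. Tnfrsf11a, the gene of RANK, stood at 25.3 FPKM in the WT-labelled and 47.0 FPKM in the KO-labelled library (log2 0.89, 0.85 to 0.94). Cd40 stood at 112.9 and 168.8 FPKM (0.58), whereas Ltbr, the lymphotoxin β receptor gene, stood at 40.4 and 24.5 FPKM (-0.72). Of 12 measured receptor genes 3 were lower and 0 higher, with a median of -0.72, where 20.5% of all measured genes were lower. Each of these 3 stood below 10 FPKM in both libraries, so a minimum mean of 10 FPKM leaves them out. The 3 lower genes were Tnfrsf13c, the BAFF receptor gene of B cells (3.35 and 0.255 FPKM), Il1rap (5.37 and 1.94 FPKM) and Tlr2 (6.56 and 2.82 FPKM). Tnfrsf13c reached the minimum of 0.5 FPKM only through its level in the WT-labelled library. Tnfrsf1a stood at 50.7 and 32.3 FPKM. Among 10 measured genes of ligands and the RANKL decoy receptor, 4 were lower and 0 higher, with a median of -0.83. The minimum was reached by Tnfsf11, Tnfsf14 and Il1a only through their level in the WT-labelled library, so the count supports no direction of the list. The 4 genes were Tnfsf11, the gene of RANKL (0.989 and 0.223 FPKM), Tnfsf14 (2.07 and 0.195 FPKM), Il1a (3.85 and 0.399 FPKM) and Il1b (12.1 and 3.56 FPKM). The decoy receptor gene Tnfrsf11b stood at 62.7 and 108.2 FPKM and Tnf at 57.1 and 40.9 FPKM.

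Of the genes that act beside TRAF3 and NIK, Birc2 and Birc3 had ratios near those of Nfkb2 and Relb. Birc2, whose product carries the TRAF3 complex's ubiquitin ligase activity, stood at 62.0 and 117.0 FPKM (log2 0.92, 0.88 to 0.95), its relative Birc3 at 91.5 and 150.7 FPKM (0.72, 0.69 to 0.75) and Traf2 at 48.6 and 59.6 FPKM (0.29). Of 7 other TRAF and IAP genes 1 was lower, Traf5 (5.33 and 2.59 FPKM), and 0 higher, with a median of 0.59. None of 8 IKK and IKK-related genes passed the rule, with a median of 0.16. The kinase genes Chuk (20.3 and 21.8 FPKM) and Ikbkb (37.7 and 52.9 FPKM), the scaffold gene Ikbkg (8.61 and 9.69 FPKM) and Tank (92.5 and 124.0 FPKM) were among them. Of 20 measured adaptors and kinases upstream of IKK 2 were lower, among them Card10 (4.60 and 1.88 FPKM), and 0 higher. Bcl10 stood at 103.0 and 148.9 FPKM and Rbck1 at 62.0 and 73.9 FPKM.

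Inhibitors other than Nfkbia went both ways. Nfkbie, the gene of IκBε, stood at 72.2 and 137.0 FPKM (log2 0.92, 0.89 to 0.96) and Nfkbib, the gene of IκBβ, at 47.3 and 46.1 FPKM. Nfkbiz, the gene of the nuclear protein IκBζ, was the 1 lower gene of 6, at 58.9 and 22.4 FPKM. Of 13 measured negative regulators 2 were lower and 0 higher, with a median of -0.01: Tnfaip3, the gene of the feedback enzyme A20, at 55.2 and 23.5 FPKM, and the RNase gene Zc3h12a at 35.3 and 15.1 FPKM. Tnip1 stood at 249.0 and 247.4 FPKM and Otulin, a linear-ubiquitin hydrolase gene, at 93.7 and 146.8 FPKM.

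Genes commonly used as NF-κB targets were spread more widely than the members. Of 23 measured, 10 were lower and 1 higher, with a median of -0.23, where 20.5% of all measured genes were lower and 7.09% higher. With a minimum mean of 10 FPKM, 9 were lower and 1 higher, where the shares of all genes were 9.69% and 6.73%. Not all 23 reach that minimum. The lower genes with the largest ratios were the chemokine genes Ccl20 (375.5 and 45.3 FPKM), Ccl5 (569.8 and 139.1 FPKM), Ccl2 (75.6 and 18.7 FPKM) and Cxcl13 (27.9 and 6.99 FPKM) and the lipocalin gene Lcn2 (165.0 and 22.2 FPKM). The higher one was the cytokine gene Il15 (34.1 and 78.6 FPKM), named after its value was seen. The chemokine gene Cxcl10 stood at 563.4 and 732.9 FPKM, and the row that joins Ccl21a with a near-identical copy at 1009 and 1346 FPKM, the latter uncertain because copies share reads.

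**Figure D5:**
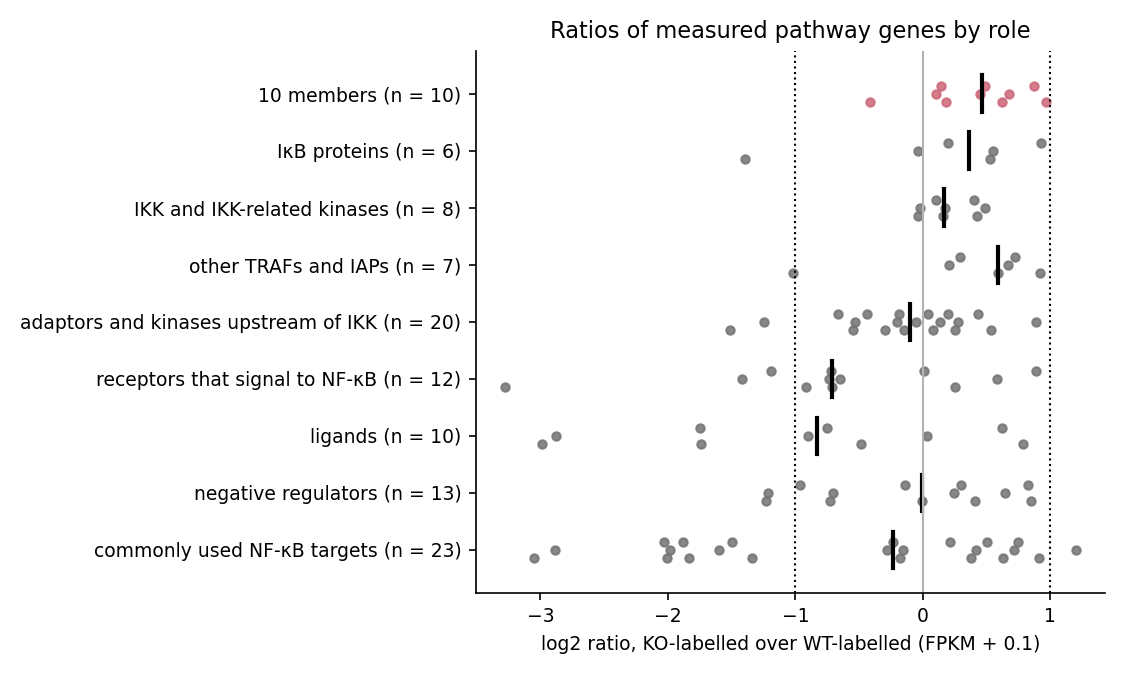
Log2 ratio of the KO-labelled library over the WT-labelled library for each measured gene, 1 row per role with the number of genes, black bars at the medians and dotted lines at 2-fold. Members lie between the lines, whereas 10 of 23 target genes lie left of them.

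Markers of other thymic cells that could enter the sort were also counted, where 20.5% of all measured genes were lower and 7.09% higher. In the KO-labelled library, 6 of 9 measured dendritic cell and macrophage markers were lower and 0 higher, and their summed level was 772.9 FPKM in the WT-labelled and 543.6 FPKM in the KO-labelled library, mostly Lyz2 (675.5 and 436.4 FPKM). The lower ones included Itgam (9.40 and 0.614 FPKM), Adgre1 (4.63 and 0.312 FPKM) and Csf1r (6.77 and 2.75 FPKM). Fcer1g (60.2 and 87.2 FPKM) and Zbtb46 (log2 0.71 from 9.13 FPKM) were the 2 measured markers with ratios above 0. The marker Cd209a (2.91 FPKM) was listed at 0 in the KO-labelled library. Of 11 thymocyte markers 4 were lower and 0 higher, with summed levels of 55.2 and 47.9 FPKM. Thy1 held 16.4 and 25.6 FPKM of these sums. Of 7 B cell markers 2 were lower and 1 higher, with 52.4 and 53.0 FPKM, mostly Cd79b (37.1 and 37.8 FPKM). Of 6 fibroblast and endothelial markers 2 were lower and 0 higher, with 36.8 and 27.5 FPKM. The lower B cell markers reached the minimum only through their level in the WT-labelled library. So did some of the lower dendritic cell, macrophage, fibroblast and endothelial markers, Cd209a and Adgre1 among them. The count of B cell markers therefore supports no direction, and the counts of those other lists rest in part on the minimum. The 4 lower thymocyte markers, Ptprc, Cd3g, Lck and Cd2, stood above the minimum in both libraries. Ptprc had the lowest level of these, at 1.95 and 0.626 FPKM. The part of other thymic cells in the values of Rel and of the lower ligand, receptor and target genes was not tested.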

How the data were processed

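Expression was measured in 2 RNA-seq libraries, 1 per genotype. The authors deposited FPKM values for genes and isoforms, made with TopHat2 and Cuffdiff on mm10, per the submitters' processing notes; the sources used here give no versions, annotation release or library scaling. The p-values and q-values are the authors' own, per the file headers. The 5 gene rows without an estimate because of high coverage were left out; all 10 members had status OK.

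Ratios used a pseudocount of 0.1 FPKM, a minimum mean of 0.5 FPKM and a 2-fold rule. Depth was fitted so that FPKM times effective length fell on whole fragments, for genes with 1 isoform of 2000 bp or more; 77.7% and 78.5% of low values lay within 0.1 of a whole number, a share that is not a test because the step was fitted to them. The effective length was the transcript length (GENCODE M21) less 260 and 210 bp. These depths are approximate. A count of 0 allows up to 0.0355 and 0.0305 FPKM at 2000 bp (3 fragments). Reads carried no molecular identifiers, so intervals and floors cover counting error only. The fit and intervals were tried on simulated counts for genes with 1 isoform and counting error alone. That trial could not show how they hold for genes with more isoforms or with other spread.

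Members and lists were chosen with earlier results of these data known. Named genes were the members, Aire, up to 5 genes per list past the rule, its 2 most expressed genes, genes that act directly with a member, and the 3 genes nearest to the member with the largest ratio. Il15 and the cell markers H2-Aa, Krt18, Cd86, Epcam, Cldn4, Lyz2, Fcer1g, Zbtb46 and Cd209a were named outside this rule, after their values were seen. So were the cell markers Itgam, Adgre1, Csf1r, Ptprc, Cd3g, Lck, Cd2, Thy1 and Cd79b. A gene that the rule names is not reported here. Of 103 listed pathway symbols 102 rows were found, 1 symbol being an older name of another. Python 3.11.15, pandas 2.3.3 and scipy 1.17.1 were used.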

Additional observations from a re-analysis of the deposited data

How the results depend on the processing

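None of the 10 settings tried took a member past the 2-fold rule, other than the 1.5-fold rule itself, which put 4 members, 17 pathway genes and 3065 measured genes past it upwards. The median log2 ratio of the members, 0.47, was 0.41 when centred on the median of genes averaging at least 0.5 FPKM, 0.39 with each library scaled to the same sum of FPKM, and 0.30 when centred on genes averaging at least 10 FPKM, a shift of 0.17. That last setting was chosen after seeing the data, as was a minimum mean of 10 FPKM. Of 100 member ratios recomputed, 98 kept their sign; the other 2, Rela and Nfkbia, turned under that centring. Counts over all genes moved more: 701 were higher with a pseudocount of 1 FPKM and 733 with the centring at 10 FPKM. Lower genes numbered 5180 without a minimum and 1804 at 2 FPKM. With a minimum of 10 FPKM, 484 were higher and 697 lower, and 12 pathway genes were lower. Of 160 counts for single lists, 17 moved by over 1.5 times. No paired analysis was possible because each genotype has 1 library.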
